A study of Schizosaccharomyces pombe with 3 samples.

Results

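The genes described here encode enzymes that make histidine and tryptophan in the fission yeast Schizosaccharomyces pombe. They were chosen by symbol in the array's platform annotation, which held all 10 listed names, 6 for histidine (his1, his2, his3, his4, his5 and his7) and 4 for tryptophan (trp1, trp2, trp3 and trp4). They are 10 of 4981 features in the table, of which 2899 are named genes. Each was read by 1 probe set, and none of these carried a suffix that marks probes shared between transcripts.

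The groups compared were 3, with 1 culture and 1 Affymetrix array in each. Wild type was the prototrophic h- strain SpHT219, taken from a YE (rich medium) plate. The unadapted mutant was the h- strain SpHT257-1, in which kanMX4 stands in place of eca39, also from a YE plate. The adapted mutant was that same deletion strain taken from an EMM2-N plate with 15 mM glutamate and 2 mM of each branched-chain amino acid, where it had grown near wild-type cells, so adaptation and the plate it came from cannot be told apart. For RNA, all groups were grown in YE broth to an optical density near 1 with isoleucine, leucine and valine added at 2 mM. Neither histidine nor tryptophan is named among the additions, though yeast extract contains amino acids. On the eca39 probe set the log2 level was 14.60 in wild type, 6.12 in the unadapted mutant and 6.37 in the adapted mutant, low in both cultures labelled as deleted.

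Histidine synthesis starts from ATP and phosphoribosyl pyrophosphate (PRPP), builds an imidazole ring with nitrogen from glutamine, and takes its amino group from glutamate. Tryptophan synthesis starts from chorismate, the end point of the shikimate pathway, and uses glutamine, PRPP and serine. The eca39 enzyme moves amino groups between glutamate and the branched-chain amino acids. In budding yeast, shortage of 1 amino acid is known to raise the genes of many amino acid pathways together through the kinase Gcn2 and the transcription factor Gcn4, and in fission yeast Gcn2 and the transcription factor Fil1 are known for a comparable role. The same gene number can mean different enzymes in these yeasts, and the roles given below are those of the fission yeast genes.

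In the unadapted mutant his4 was the member farthest from wild type, and 7 other members also read above wild type by smaller amounts. The words rose and fell are used for a difference of at least 1 on the log2 scale (2-fold) where the brighter of both arrays was at or above 9.82, the table's 30th percentile. By this rule 1 of 10 members rose and none fell, where 1.65% of all 4981 features rose and 0.0602% fell. The median difference was 0.38 over the 10 members and 0 over all features. Of the members 8 lay above 0 and 2 below, while 45.9% of all features, and 38.9% of the 3569 features that reached the brightness limit, lay above 0. All 10 members reached that limit on every array. The values are relative levels in RNA of whole cultures, where fewer cells of a kind and less RNA per cell cannot be told apart. With 1 array per group no difference has a replicate check and no test was made, and the values describe these cultures only.

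**Figure D1:**
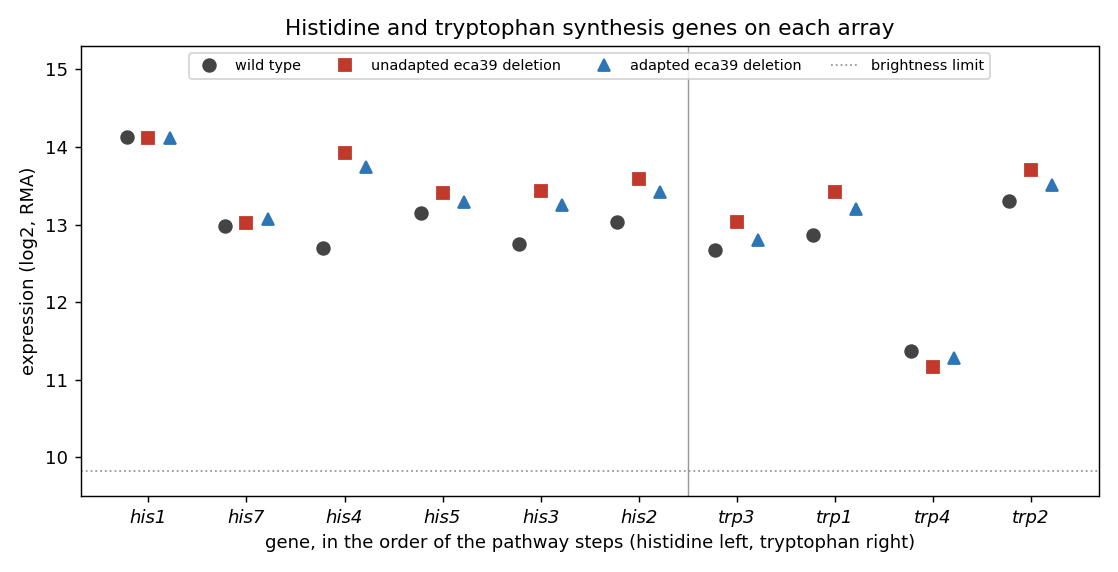
Expression (log2, RMA) of each member on the wild-type array (grey circles), the unadapted mutant array (red squares) and the adapted mutant array (blue triangles), 1 array per group, with genes in the order of the pathway steps and the brightness limit of 9.82 dotted. For his4, his3, his2, trp1, trp2, trp3 and his5 wild type is lowest and the unadapted mutant highest, his1 and his7 stay close together, and trp4 is highest in wild type.

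Within the histidine pathway the genes of the early steps differed little between the cultures. The first step is made by his1 (SPAC25G10.05C), the ATP phosphoribosyltransferase that joins PRPP to ATP. Its log2 level was 14.12 in wild type, 14.11 in the unadapted mutant and 14.11 in the adapted mutant, and both mutant arrays held the identical value. The highest value on any array was 15.17, so this probe set was bright and a change could be understated. The following reactions belong to his7 (SPBC29A3.02C), which hydrolyses phosphoribosyl-ATP and then opens its purine ring. It read 12.99 in wild type, 13.02 in the unadapted mutant and 13.07 in the adapted mutant, differences from wild type of 0.03 and 0.09 on the log2 scale.

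The middle of the pathway held the gene that rose. The enzyme of his4 (SPBC418.01C), imidazole glycerol phosphate synthase, takes nitrogen from glutamine, closes the imidazole ring and releases AICAR, an intermediate of purine synthesis. Its log2 level was 12.70 in wild type, 13.92 in the unadapted mutant and 13.74 in the adapted mutant. Both mutants were well above wild type and close to each other. The gene rose 2.33-fold in the unadapted mutant, a difference of 1.22 that was met or exceeded by 1.46% of the 3569 features at the brightness limit. In the adapted mutant it rose 2.06-fold, a difference of 1.04 that 1.39% of 3588 such features met or exceeded. The latter call was narrow, since the difference became 0.99 when each array was centred on its median.

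The next gene, his5 (SPBC21H7.07C), encodes the dehydratase that acts on imidazole glycerol phosphate. It read 13.14 in wild type, 13.41 in the unadapted mutant and 13.29 in the adapted mutant. Its differences from wild type, 0.26 and 0.15, were well short of 2-fold, and in the unadapted mutant 13.5% of the features at the brightness limit had one at least as high. His3 (SPBC11B10.02C), the aminotransferase that brings in the amino group of glutamate, read 12.75 in wild type, 13.43 in the unadapted mutant and 13.26 in the adapted mutant. Wild type was lowest, and the differences of 0.68 and 0.51 were the next in size after his4 in each mutant. At a 1.5-fold threshold his3 joined his4 in the unadapted mutant (2 of 10 members, where 3.96% of all features rose), and in the adapted mutant his4 alone passed (1 of 10, where 2.61% rose).

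The pathway ends with his2 (SPBC1711.13), histidinol dehydrogenase, which oxidises histidinol to histidine. It read 13.03 in wild type, 13.59 in the unadapted mutant and 13.42 in the adapted mutant. Wild type was again the lowest array, with differences of 0.56 and 0.38. Over the 6 histidine genes the median difference from wild type was 0.41 in the unadapted mutant and 0.27 in the adapted mutant. In each mutant 5 lay above 0 and his1, at -0.0099, just below it, where 45.9% and 56.1% of all features lay above 0. The isomerase gene his6, which acts between his7 and his4, was not analysed here, nor was the phosphatase step before his2.

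**Figure D2:**
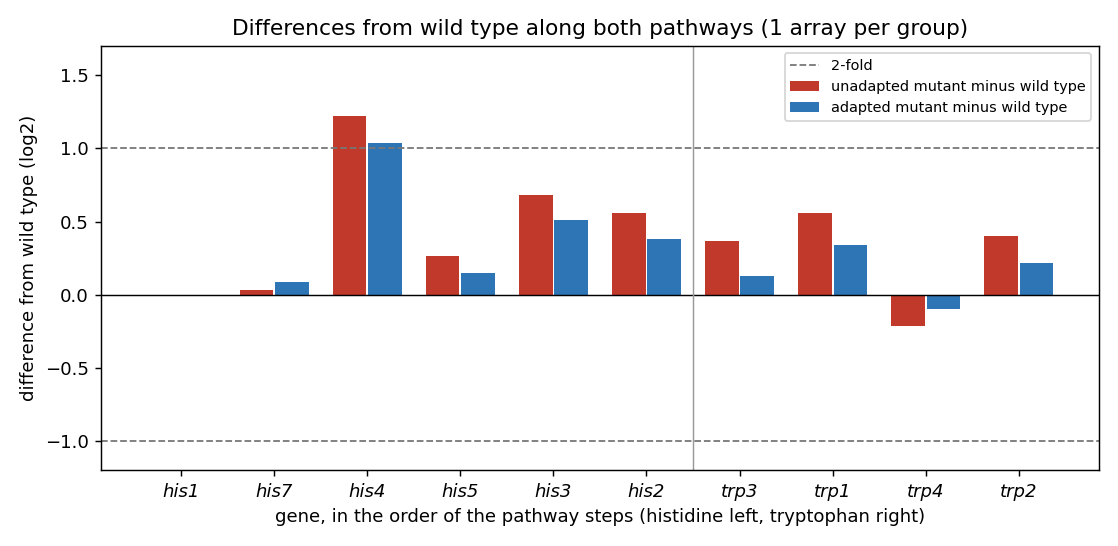
Difference from wild type (log2) of each member in the unadapted mutant (red bars) and the adapted mutant (blue bars), with genes in the order of the pathway steps, histidine on the left and tryptophan on the right, and dashed lines at 2-fold. The his4 bars, 1.22 and 1.04, are the only ones past the line, and the trp4 bars, -0.22 and -0.096, point down.

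Among the tryptophan genes none rose or fell, and 3 of 4 read above wild type in both mutants. Of all features 1.65% rose in the unadapted mutant and 1.06% in the adapted mutant, so none of 4 says little. The share of all features above wild type was 45.9% in the unadapted mutant and 56.1% in the adapted mutant. Anthranilate synthase, the entry from chorismate, is made of the products of trp3 and trp1. The large subunit comes from trp3 (SPCC1442.09), which read 12.67 in wild type, 13.04 in the unadapted mutant and 12.80 in the adapted mutant. The product of trp1 (SPBC1539.09C) is a fused protein that supplies the glutamine-using subunit and also makes later ring-forming steps. It read 12.86 in wild type, 13.42 in the unadapted mutant and 13.20 in the adapted mutant. Both genes were lowest in wild type and highest in the unadapted mutant. Their differences from wild type were 0.37 and 0.56 in the unadapted mutant and 0.13 and 0.34 in the adapted mutant, for trp3 and trp1 in that order.

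The gene of the second enzyme read lower than wild type in both mutants. This is trp4 (SPBC16G5.08), whose anthranilate phosphoribosyltransferase joins anthranilate to PRPP. Its level was 11.38 in wild type, 11.16 in the unadapted mutant and 11.28 in the adapted mutant. Wild type was the highest array here, although the differences of -0.22 and -0.096 were small and 13.3% of the features at the brightness limit lay as low or lower in the unadapted mutant. The last enzyme, tryptophan synthase, is encoded by trp2 (SPAC19A8.15) and joins indole to serine. It read 13.30 in wild type, 13.70 in the unadapted mutant and 13.51 in the adapted mutant, so that wild type was lowest, by 0.40 and 0.21. The median over the 4 tryptophan genes was 0.38 in the unadapted mutant and 0.17 in the adapted mutant.

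**Figure D3:**
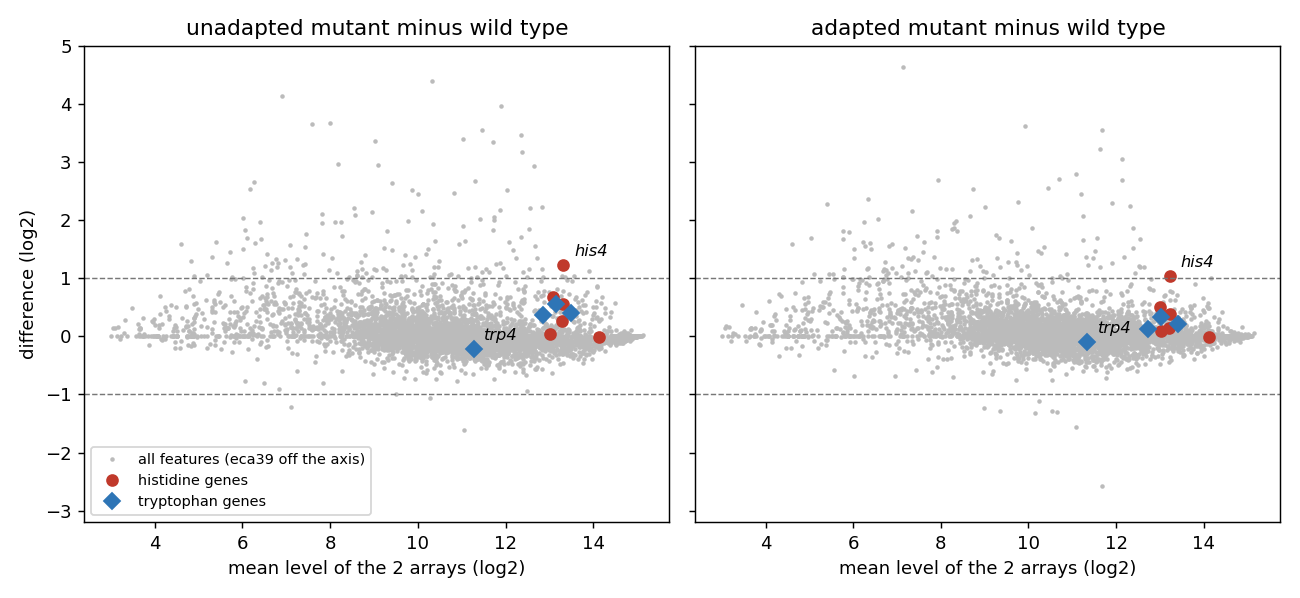
Difference from wild type (log2) against the mean log2 level of both arrays for all 4981 features (grey, eca39 off the axis), in the unadapted mutant (left) and the adapted mutant (right), with histidine genes as red circles, tryptophan genes as blue diamonds and dashed lines at 2-fold. Only his4 among the members stands past the 2-fold line, and trp4 lies below 0.

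In the adapted mutant the members other than his1 and his7 stood nearer to wild type than in the unadapted one, and again his4 was the only one that rose. That is 1 of 10 members, with none that fell, where 1.06% of all features rose and 0.161% fell. The median difference from wild type was 0.18 over the members and 0.027 over all features, and 8 members lay above 0 and 2 below, while 56.1% of all features lay above 0. Both mutants were set against the same wild-type array, so their differences from it are not independent of each other.

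Set directly against the unadapted mutant, the adapted mutant had lower levels for 7 members and a higher level for his7 and trp4. The value of his1 was the same in both. Of all 4981 features 2532 were higher in the adapted mutant, 1809 were lower and 640 had the same value. Among features at the brightness limit 54.5% were higher. None of 10 members rose or fell, where 0.141% of all features rose and 0.341% fell. The lowest differences were those of trp3 (-0.24), trp1 (-0.21) and trp2 (-0.19), followed by his4 (-0.18), and the highest was that of trp4 (0.12). The median was -0.17 over the members and 0.003 over all features. Each of the 10 differences was smaller than the standard deviation of all differences between these arrays, 0.245. All members are bright, and over the 3609 features at the brightness limit the standard deviation was 0.218. The difference of trp3 exceeded that in size. Of these features 6.7% lay as low as trp3 or lower, and 8.1% as low as trp1 or lower. This comparison shares an array with that of the unadapted mutant against wild type.

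The genes that supply these pathways were described from lists chosen by function. For the shikimate pathway and the other aromatic amino acids 3 of 9 listed genes were measured under their names. None of them rose or fell in any comparison, where at most 1.65% of all features rose and at most 0.341% fell. The gene of prephenate dehydratase, pha2, on the phenylalanine branch, read 11.40 in wild type, 12.14 in the unadapted mutant and 12.00 in the adapted mutant, differences of 0.74 and 0.60. The gene aro1, whose fused enzyme makes most of the shikimate steps, had differences of 0.34 and 0.22, and tyr1, on the tyrosine branch, had ones of 0.09 and -0.02. The order of the cultures was thus the same for pha2 and aro1 as for most tryptophan genes.

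Genes for PRPP, for the use of AICAR and for charging tRNA with histidine or tryptophan did not read above wild type in the unadapted mutant. Of 5 listed PRPP synthetase genes 2 were measured, and prs1 had a difference of -0.30 and prs5 one of 0. The purine genes ade10 and ade8, of which ade10 acts on AICAR, had differences of -0.05 and -0.0074. The histidine tRNA ligase gene hrs1 had a difference of 0, and the tryptophan ligase genes wrs1 and msw1 had ones of -0.09 and -0.08. In the adapted mutant these 7 genes lay between -0.20 and 0.01. None of the 7 rose or fell in any comparison, where at most 1.65% of all features rose and at most 0.341% fell.

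Of the regulators of the response to amino acid shortage 5 of 8 listed were measured. The kinase gene gcn2 was the only one that rose, in the unadapted mutant, where 1.65% of all features rose. It read 10.56 in wild type, 11.74 in the unadapted mutant and 11.12 in the adapted mutant, and rose 2.27-fold in the unadapted mutant, while its difference of 0.56 in the adapted mutant was short of the rule. The unadapted mutant was thus highest, as for most members. The other eIF2 kinase genes hri1 and hri2 stayed below the brightness limit on all arrays, with differences of -0.13 and -0.23 in the unadapted mutant, and tif211, the gene of the kinases' target eIF2 alpha, had one of -0.20. The gene fil1 was not analysed here.

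Other amino acid pathways were set beside the members to show where these stand, with no test of the difference. In the unadapted mutant, where 1.65% of all features rose, 3 of 8 arginine genes did, arg3 2.39-fold, arg4 2.07-fold and arg5 2.04-fold. All 8 lay above 0, where 45.9% of all features did, and their median was 0.78. Of those short of 2-fold, arg12 had a difference of 0.86 and arg1 one of 0.70, while arg11 was lowest at 0.09. The calls of arg4 and arg5 were narrow, since their differences became 0.99 and 0.97 with each array centred on its median, which left arg3 as the 1 arginine gene that rose. None of the 5 measured lysine genes rose and their median was 0.57, with lys1 at 0.77, lys3 at 0.68 and lys4 at 0.57. The lowest lysine gene was lys7 at -0.18, which stayed below the brightness limit on all arrays. None of the 5 branched-chain genes other than eca39 rose, and their median of 0.41 was like that of the histidine genes, with leu3 at 0.64 and ilv1 at 0.48. The lowest branched-chain gene was ilv5 at 0.05. In the adapted mutant the medians were 0.58 for arginine, 0.40 for lysine and 0.23 for the branched-chain genes, against 0.27 for histidine and 0.17 for tryptophan. None of these arginine, lysine and branched-chain genes rose there, where 1.06% of all features did.

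**Figure D4:**
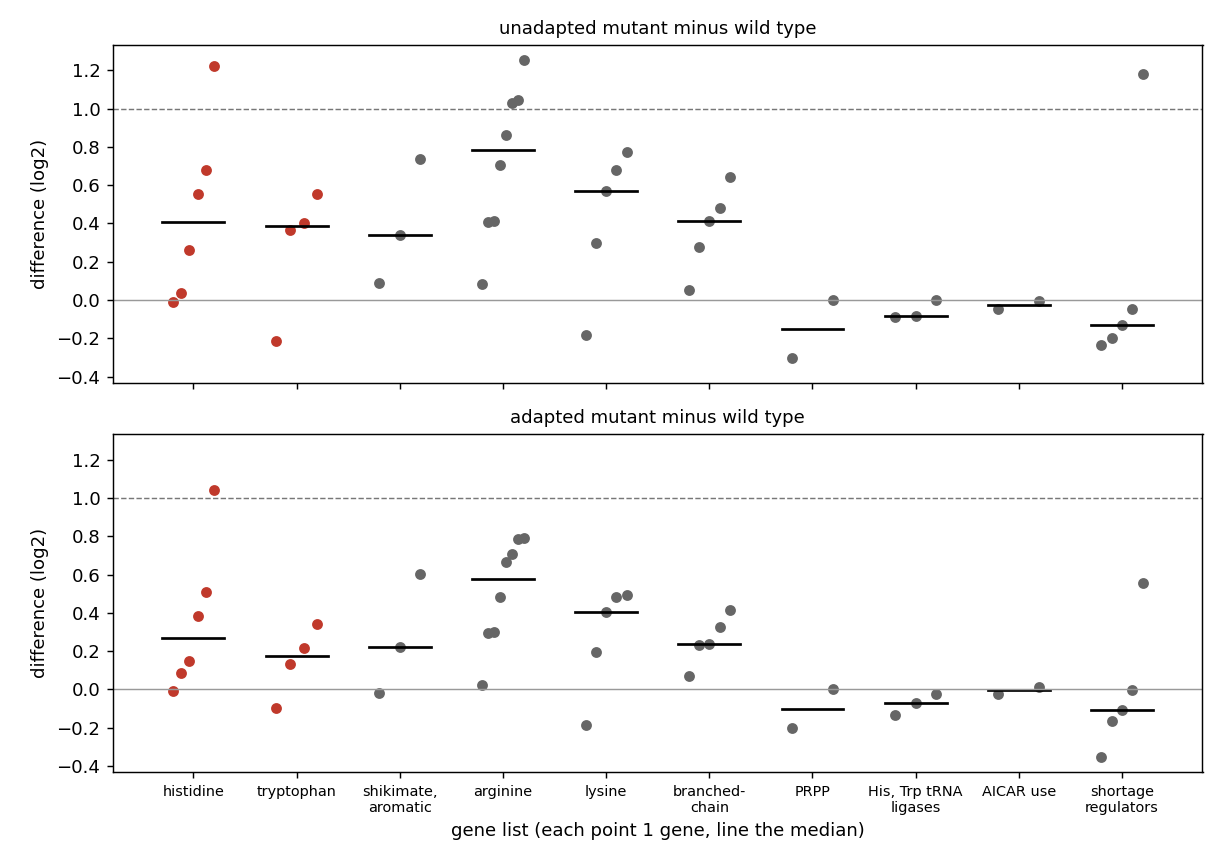
Difference from wild type (log2) of each measured gene of 10 lists in the unadapted mutant (top) and the adapted mutant (bottom), 1 point per gene, with a line at each list's median, the histidine and tryptophan genes in red and a dashed line at 2-fold. His4, 3 arginine genes and the regulator gcn2 stand past the line in the unadapted mutant and only his4 does in the adapted mutant. With median centring arg4, arg5 and the adapted value of his4 lie just under the line, at 0.99, 0.97 and 0.99.

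The genes with the pattern closest to that of his4 were sought among 2153 named genes at the brightness limit, by the distance in the pair of log2 differences from wild type. The nearest was arg3 (distance 0.25), which encodes ornithine carbamoyltransferase, with differences of 1.25 in the unadapted mutant and 0.79 in the adapted mutant. It was followed by the alcohol dehydrogenase gene adh4 (0.28), the mitochondrial transporter gene atm1 (0.29), the arginine gene arg5 (0.32) and the vacuolar protease gene isp6 (0.37). In all 5 the adapted mutant lay between wild type and the unadapted mutant, an order favoured by choosing them on these same differences. Their differences in the adapted mutant ran from 0.73 to 0.79, so none of the 5 rose there, unlike his4 at 1.04. The likeness rests on 3 arrays and is a description only.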

How the data were processed

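Total RNA of 3 cultures was biotin-labelled with an Affymetrix kit that primes from the 3' end, per the labels' protocols, and read on 1 array each. The deposited values are log2 expression per probe set, which the authors computed by RMA (affy package; per the submitters' processing notes, which give no versions). RMA equalizes the distribution of probe intensities between arrays before it summarizes probe sets, so a shift of most transcripts could be hidden, and the summarized values still had medians of 10.64 in wild type, 10.69 in the unadapted mutant and 10.69 in the adapted mutant. The log base was taken as 2 from the range of 2.99 to 15.17. Of 4999 probe sets, 2917 had 1 name in the platform annotation, which can be old, 20 had several and 2062 had none. Where a gene had several probe sets, their log2 values were averaged. Locus tags came from a gene table of assembly ASM294v3. No coordinates or sequences are given. Differences were computed with Python 3.11.15, pandas 2.3.3 and statsmodels 0.14.6 for a lowess fit with a span of 0.3. Simulated data with planted changes served only to check the code of the size rule. Their noise came from the difference between the mutant arrays and not from replicates, so they do not show how reliable a call near 2-fold is. With 1 array per group there was no test, no p-value and no pairing, and precision is limited by the number of arrays. The named genes were all members, eca39, every member of another list past the size rule, up to 3 more per list by absolute difference in the unadapted mutant, and the 5 genes most like his4. The lowest gene of the arginine, lysine and branched-chain lists was named as well. Members and lists were chosen with earlier results of these data known. Alternatives were other fold and brightness thresholds, removal of the intensity trend, repeated quantile normalization, median centring and the brightest probe set of a gene.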

Additional observations from a re-analysis of the deposited data

How the results depend on the processing

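At a 1.5-fold threshold 2 members were called in the unadapted mutant, and at a 3-fold threshold the count was 0 in the unadapted mutant and 0 in the adapted mutant against wild type. With each array centred on its median the count in the adapted mutant was 0 in place of 1, because the difference of his4 became 0.99. With this centring 0.98% of all features rose in the adapted mutant. In alternatives added after seeing the data, the arginine genes that rose in the unadapted mutant were also counted. Their count was 1 with median centring and 2 under repeated quantile normalization, in place of 3. The share of all features that rose was 1.37% and 1.47% in that order, in place of 1.65%. The other alternatives, namely no brightness limit, a limit at the 50th percentile, removal of the intensity trend, repeated quantile normalization and the brightest probe set of a gene, left the counts of members called as reported. The median over the members ran from 0.33 to 0.44 in the unadapted mutant, from 0.13 to 0.18 in the adapted mutant, and from -0.21 to -0.16 between the mutants. Over 120 recomputed member differences the greatest move was 0.069 on the log2 scale. The sign turned only for his1 and his7, whose differences from wild type in the unadapted mutant ran from -0.065 to 0.024 and from -0.021 to 0.098, and for his1 between the mutants, where the reported difference is 0. No paired analysis was possible because each group had 1 array.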

Other observations

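The nearest named and measured protein-coding genes on both sides of each member, by gene order in assembly ASM294v3, gave 20 neighbours with at most 3 genes between them and the member. None of the 20 was itself a member, and none rose or fell in either mutant. Of all features 1.65% rose and 0.0602% fell in the unadapted mutant, and 1.06% rose and 0.161% fell in the adapted mutant. With shares this small, a count of none among 20 says little about the neighbours. Over the 18 neighbours that reached the brightness limit in the unadapted mutant the median difference from wild type was -0.065, with ccc2, beside his7, highest at 0.61 and trm11, near his4, lowest at -0.28. On the other side of his4, hfi1 had a difference of 0.055 in both mutants. In the adapted mutant the median over 18 neighbours was -0.0028. Of the neighbours below the brightness limit, the meiotic gene rec10, beside his1, read 6.04 in wild type, 7.30 in the unadapted mutant and 7.59 in the adapted mutant. Its differences of 1.26 and 1.55 exceeded 2-fold, but the rule calls no gene at such low levels.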
